A study of Mus musculus with 2 samples.

Results

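The genes described here encode core proteins of the pre-mRNA splicing machinery and its regulators: the SR proteins (Srsf), the hnRNP proteins (Hnrnp), the subunits of SF3A, SF3B and U2AF that recognise the 3' end of introns (Sf3a, Sf3b, U2af), proteins of the spliceosomal small nuclear ribonucleoproteins (Snrp) and the Prpf proteins. They were taken by symbol alone, as all probe sets annotated to exactly 1 gene of these name families, with Snrpn left out. No measured value entered this rule, but the families were chosen with earlier results of these data known. The choice held 173 of the 34945 probe sets that name a gene of their own, and 61 of 18193 genes. Another 7 protein-coding genes of these name families had no probe set that names them alone and were not analysed here.

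Total RNA was measured on 1 array each for 2 mouse embryonic stem (ES) cell lines of strain C57BL/6 at passage 15 to 18, one with the genotype MOF +/+ (wild type) and the other MOF-/- (Mof null). Mof, listed as Kat8, is an enzyme that acetylates histone H4, and the design compared expression between the 2 lines. Both lines came from embryos at 3.5 days post coitum, were kept on mouse embryonic fibroblast feeders with LIF, and went through 2 passages without feeders before RNA extraction. Each genotype was thus represented by 1 culture of 1 line on 1 array, so no value below carries an error between replicates, and no test was run. Values are log2 values made by the authors with RMA, a difference is the value on the Mof null array minus that on the wild-type array, and folds are 2 raised to its size.

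Introns are removed from pre-mRNA by the spliceosome, in which U1 marks the 5' splice site, U2 pairs with the branch site, and the U4/U6.U5 particle joins before catalysis. SR proteins bind exons and mostly favour their inclusion, whereas many hnRNP proteins coat the transcript and mask splice sites, and the balance of both sets which exons are kept. These genes are broadly expressed, many of them control their own level through poison exons or retained introns, and ES cells and fibroblasts differ in the exons they use.

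The promoters of these genes were examined for short motifs because the members lay close together in their differences. Windows of 250 bases before to 50 bases after the annotated start were found in the RefSeq table (assembly GRCm38.p6) for 54 of the 61 genes, 71 windows in all, some of which overlap within a gene. The letters CCGGAAGT, a form of the sites bound by ETS family factors, occurred on either strand in 13 of 71 member windows (18.3%), in 7.71% of the 12433 windows of all expressed genes and in 3.89% of all 32851 windows. Shorter or other forms of such sites were not searched. Counted by gene, 11 of 54 members (20.4%) and 8.92% of expressed genes held them. The windows below are those of the SR gene with the largest positive difference, of an hnRNP gene past 1.5-fold, of 2 subunits of the same complex (SF3A), and, as the window of a gene that was lower and held no match to CCGGAAGT, that of Hnrnph2. The printed genes with a match are those with the largest differences of the 11, and Hnrnph2 had the lowest of any expressed member. The printed windows are thus extremes and do not show how differences relate to the motif. Srsf4 had 3 windows, of which 1 with a match is printed, and each other printed gene had 1. Capitals mark CCGGAAGT or its reverse complement ACTTCCGG, and each sequence is written 5' to 3' along the gene's strand.
Srsf4, chr4:131873387-131873686, plus strand: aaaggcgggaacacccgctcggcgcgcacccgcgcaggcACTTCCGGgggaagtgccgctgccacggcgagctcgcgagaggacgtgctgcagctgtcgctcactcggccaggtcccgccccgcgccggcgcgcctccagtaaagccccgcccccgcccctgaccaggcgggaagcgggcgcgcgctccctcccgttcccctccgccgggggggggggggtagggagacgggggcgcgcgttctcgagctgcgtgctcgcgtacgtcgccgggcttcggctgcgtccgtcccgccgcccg
Hnrnpd, chr5:99978889-99979188, minus strand: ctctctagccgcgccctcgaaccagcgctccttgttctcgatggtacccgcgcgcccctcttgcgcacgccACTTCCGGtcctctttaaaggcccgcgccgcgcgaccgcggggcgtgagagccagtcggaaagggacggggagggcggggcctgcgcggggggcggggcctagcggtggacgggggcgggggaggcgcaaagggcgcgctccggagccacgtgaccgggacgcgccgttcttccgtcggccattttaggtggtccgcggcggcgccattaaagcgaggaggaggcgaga
Sf3a1, chr11:4160104-4160403, plus strand: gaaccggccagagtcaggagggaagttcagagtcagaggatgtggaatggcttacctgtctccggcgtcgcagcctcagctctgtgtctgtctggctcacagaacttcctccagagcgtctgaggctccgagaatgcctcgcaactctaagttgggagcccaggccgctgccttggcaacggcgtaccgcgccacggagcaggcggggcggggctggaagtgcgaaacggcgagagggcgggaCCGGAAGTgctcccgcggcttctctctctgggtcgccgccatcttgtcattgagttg
Sf3a3, chr4:124714611-124714910, plus strand: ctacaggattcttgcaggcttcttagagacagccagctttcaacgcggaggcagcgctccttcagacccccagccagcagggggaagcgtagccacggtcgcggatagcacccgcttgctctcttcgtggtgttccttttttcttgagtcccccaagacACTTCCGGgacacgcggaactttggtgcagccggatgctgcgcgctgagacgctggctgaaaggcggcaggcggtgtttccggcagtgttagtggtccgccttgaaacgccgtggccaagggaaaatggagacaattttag
Hnrnph2, chrX:134600929-134601228, plus strand: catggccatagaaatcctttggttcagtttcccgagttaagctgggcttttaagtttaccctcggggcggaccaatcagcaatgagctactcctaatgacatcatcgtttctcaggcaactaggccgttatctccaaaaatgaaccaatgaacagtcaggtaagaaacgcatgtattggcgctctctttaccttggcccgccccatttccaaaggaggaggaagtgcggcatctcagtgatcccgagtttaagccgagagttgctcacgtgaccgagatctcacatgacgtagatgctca

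The 11 members with these letters had a median difference of 0.32 log2 units, from 0.067 for Srsf5 to 0.79 for Srsf4, and the 42 expressed members whose windows lacked them had a median of 0.29, from -0.28 to 0.83. The ranges overlapped. The CCAAT box (letters CCAAT) was found in 51.9% of members and 42.9% of expressed genes, the GC box (GGGCGG) in 66.7% and 69.5%, the TATA box (TATAAA) in 9.26% and 9%, the E-box (CACGTG) in 13% and 11.9%, and the NRF1 core (GCATGCGC) in 5.56% and 6.06%, each searched on both strands. Member windows held a median of 25 CpG dinucleotides, windows of expressed genes 20 and all windows 7. A match describes letters in a window, and binding was not measured.

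The arrays had nearly the same distribution, with medians of 6.02 (wild type) and 6.01 (Mof null) and values between 2.77 and 14.7. The probe set of Kat8 read 8.06 on the wild-type and 8.37 on the Mof null array. Whether it lies inside the deleted part was not known here, so it does not check the labels, and each direction below depends on them. All 15 ES cell markers were expressed on both arrays and higher on the Mof null array (median difference 0.60). Their differences ranged from 0.018 for Klf2 to 0.94 for Tdgf1, with an SD over genes of 0.30. All 20 fibroblast markers were above the level filter on both arrays and lower on the Mof null array, 19 of them at least 2-fold, with a median of -1.87 and a summed level (of 2 raised to the values) of 165968 on the wild-type and 56237 on the Mof null array. All 8 macrophage markers were also above the filter on both arrays and lower on the Mof null array, 7 of them at least 2-fold, with summed levels of 13291 and 4139. Fewer cells of a type and less RNA per cell cannot be told apart in such samples, and the part of these cells in the differences below was not tested.

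Nearly all of the 60 expressed genes of these families lay slightly higher on the Mof null array, and none passed 2-fold on its brightest probe set. Each gene is given by its brightest probe set (by the mean of both arrays), and it counted as expressed if it reached 6.02, the median of all values, on at least 1 array. Srsf12, at 4.33 on the wild-type and 3.79 on the Mof null array, was the 1 member below that level, and the other 60 were expressed. Of these, 55 were higher, 4 were lower and Hnrnpul1 read the same on both arrays, while 56.7% of all 12015 expressed genes were higher. With the median of the ES cell markers subtracted, which lowers every gene by 0.60, 5 of the 60 were above 0, beside 16.7% of all expressed genes. The median member was higher by 0.30 log2 units and the median expressed gene by 0.10. With the 15 ES cell markers as the reference the member median became -0.30 and that of all expressed genes -0.50.

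No expressed member passed 2-fold in either direction, whereas among expressed genes 5.09% passed it upward and 11.9% downward. At 1.5-fold, 6 members (Srsf4, Hnrnph3, Hnrnpd, Snrpf, Prpf38a and Prpf40b) were higher, against 17.3% of expressed genes, and none was lower, against 19.2%. The members lay in a narrow band from -0.28 to 0.83, with an SD over genes of 0.23, whereas the SD over all expressed genes was 0.81. Within 0.5 log2 units of 0 lay 47 of 60 members (78.3%) and 56.7% of expressed genes. A smaller share of members than of expressed genes thus passed either size, and their differences were mostly of the same sign.

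**Figure D1:**
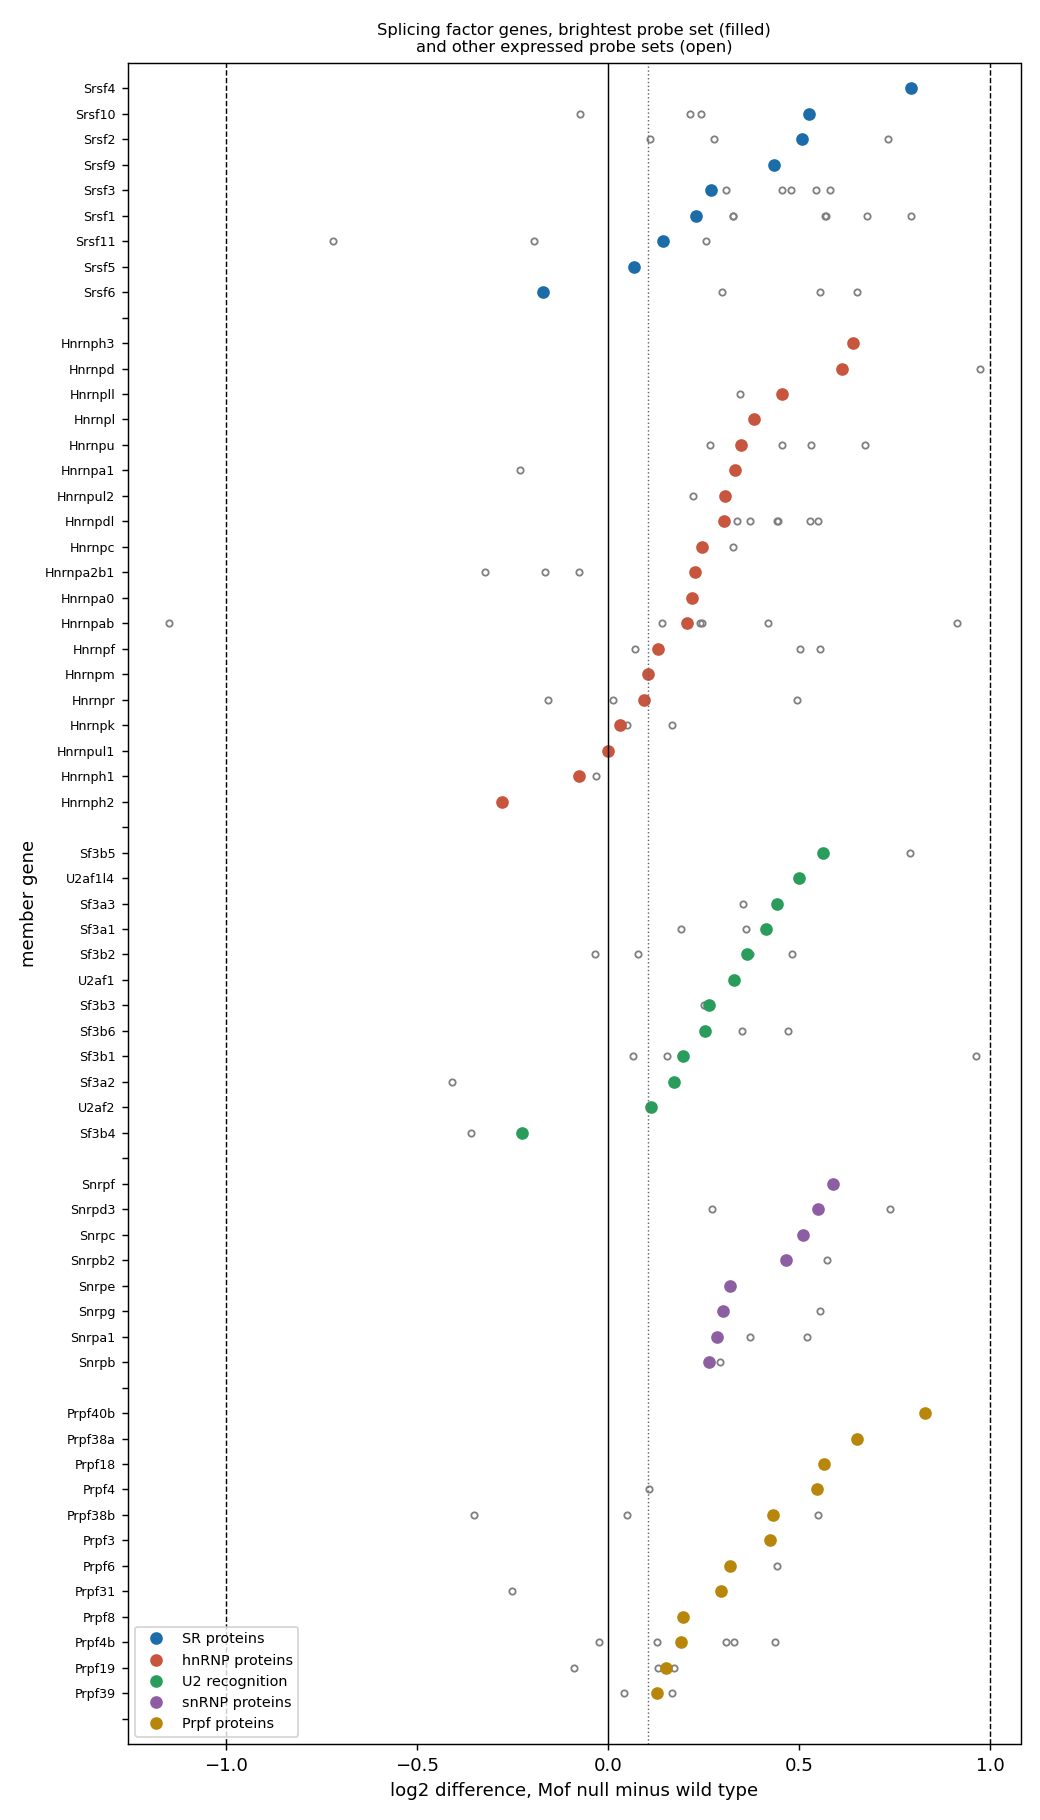
Log2 difference (Mof null minus wild type, x axis) of each expressed member gene (y axis), grouped by role, with the brightest probe set as a filled point and the other expressed probe sets as open points. Solid, dashed and dotted lines mark 0, 2-fold and the median expressed gene (0.10), and of the filled points 55 lie above 0 and none reaches 2-fold.

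The members are brightly read genes, so they were set beside expressed genes of the same level. Among genes with a mean value of 10 to 11, the 13 members had a median difference of 0.41 and the 1702 expressed genes 0.16. From 11 to 12 the medians were 0.26 for 19 members and 0.15 for 958 genes, from 12 to 13 they were 0.25 for 16 members and 0.13 for 453 genes, and from 13 to 14 they were 0.30 for 5 members and 0.089 for 127 genes. The dimmest members, 3 genes from 8 to 9 and 4 genes from 9 to 10, had medians of 0.56 and 0.46, beside 0.052 and 0.13 for all expressed genes there. In each band the median member was therefore above the median gene of like level, by 0.11 to 0.51 log2 units. The spread of all expressed genes also narrowed with level, from an SD of 0.84 between 8 and 9 to 0.58 between 12 and 13, and the share past 2-fold went from 5.59% to 1.1% upward and from 13.2% to 6.4% downward. In the bands that hold most members the SD of the members was 0.29 from 10 to 11, 0.20 from 11 to 12 and 0.21 from 12 to 13, beside 0.71, 0.63 and 0.58 for all expressed genes of those levels. At least 1.5-fold higher there were 23.1%, 5.26% and 6.25% of members, beside 16%, 14.2% and 8.83% of all expressed genes. From 8 to 9 the shares were 33.3% of 3 members and 17.9% of all, and from 9 to 10 they were 0% of 4 members and 19.6%. Upward at 1.5-fold, the members thus lay above the share of their level in some bands and below it in others.

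**Figure D2:**
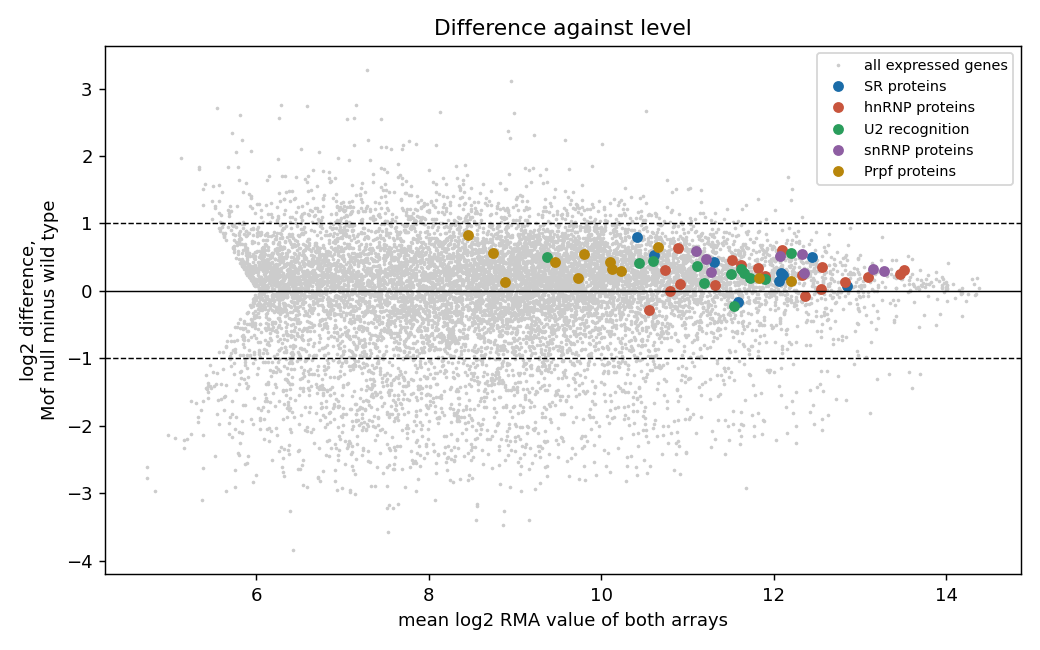
Log2 difference (y axis) against the mean log2 RMA value of both arrays (x axis) for 12015 expressed genes (grey) and 60 members (coloured by role). The members sit mostly at 10 and above and between the dashed 2-fold lines, on the upper side of 0.

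SR proteins carry a domain rich in arginine and serine and guide the spliceosome to exons. Of 9 expressed Srsf genes 8 were higher, 1 of them past 1.5-fold, and the median difference was 0.27. For this and the other role groups, the shares over all expressed genes were 56.7% higher and 17.3% at least 1.5-fold higher. Srsf4 was read at 10.0 on the wild-type and 10.8 on the Mof null array by its 1 probe set, a difference of 0.79 or 1.73-fold. Srsf10, whose protein represses splicing when it loses its phosphates, went from 10.3 to 10.9 (1.44-fold), and Srsf2 from 12.2 to 12.7 (1.42-fold). The other expressed probe sets of Srsf10 differed by -0.074 to 0.24, and those of Srsf2 by 0.11 to 0.73. Srsf9 followed at 1.35-fold, while Srsf5 differed by 0.067, which turned negative after centring on the median gene or correcting the trend with level. Srsf6 was the lower one, at 11.7 and 11.5 on its brightest probe set, and the other 3 probe sets of this gene went the other way.

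Srsf1, among the first SR proteins described, was higher on all 7 of its expressed probe sets. Its brightest probe set differed by 0.23, the least of them, and the largest difference was 0.79, from 10.3 on the wild-type to 11.1 on the Mof null array. Srsf3 was likewise higher on all 6 expressed probe sets, by 0.27 on the brightest and by up to 0.58. For both genes the brightest probe set gave the smallest difference. Over all 40 members with several expressed probe sets this was not general, since the brightest lay below the median of the others in 19, near the 51.7% of all 5362 such genes.

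The hnRNP proteins had the lowest median of the role groups, 0.23, with 16 of 19 genes higher. Hnrnph3 was read at 10.6 on the wild-type and 11.2 on the Mof null array (1.56-fold). Hnrnpd, which binds AU-rich elements and takes part in mRNA decay, went from 11.8 to 12.4 (1.53-fold), and its second expressed probe set differed by 0.97. Hnrnpll and Hnrnpl, relatives that bind CA repeats, were higher by 1.37-fold and 1.30-fold, and Hnrnpu, a nuclear scaffold protein, by 1.27-fold with all 5 probe sets between 0.27 and 0.67. Hnrnpdl was higher on each of 7 probe sets, by 0.30 to 0.55. Hnrnpk and Hnrnpr differed by 0.030 and 0.093, and both turned negative after centring and after trend correction, while Hnrnpm, at 0.10, did so after trend correction only.

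The relatives Hnrnph1 and Hnrnph2, which bind runs of guanines, were the lower members of the hnRNP group. Hnrnph2 read 10.7 on the wild-type and 10.4 on the Mof null array (-0.28, the lowest difference of any expressed member), and Hnrnph1 read 12.4 and 12.3 with both of its probe sets below 0. Hnrnpf, which binds the same sequences, was higher by 0.13 on the brightest of 4 probe sets, which ranged from 0.071 to 0.56. The G-run binding proteins thus did not share a sign.

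Branch site and 3' splice site recognition by U2 rests on SF3A, SF3B and U2AF. Of these genes 11 of 12 were higher, with a median of 0.30. None passed 1.5-fold, a size that 17.3% of all expressed genes passed upward and 19.2% downward. Both large and small SF3B subunits were included. Sf3b5, a small subunit, was read at 11.9 on the wild-type and 12.5 on the Mof null array (1.48-fold), and its other expressed probe set differed by 0.79. Sf3b1, which clamps the branch site and is often mutated in blood cancers, was higher by 0.20 (1.15-fold), with 3 of its 4 probe sets between 0.066 and 0.20 and the dimmest, from 7.66 to 8.63, at 0.96. Sf3b4 was lower on both of its probe sets, by -0.23 from 11.7 to 11.4 on the brighter and by -0.36 on the other. Sf3a3 and Sf3a1 were higher by 1.36-fold and 1.33-fold. U2af1, which reads the AG at the intron end, was higher by 0.33, U2af1l4, a relative of it, by 0.50, and U2af2, which binds the pyrimidine tract, by 0.11, a value that turned negative after trend correction.

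Proteins of the snRNP particles had the highest median of the role groups, 0.39, and all 8 were higher, on every expressed probe set. The Sm proteins form the ring shared by the U1, U2, U4 and U5 particles. Of the Sm genes, Snrpf was read at 10.8 on the wild-type and 11.4 on the Mof null array (a difference of 0.59), Snrpd3 at 12.0 and 12.6 (1.46-fold), Snrpe at 13.0 and 13.3, Snrpg at 13.1 and 13.4, and Snrpb at 12.2 and 12.5. The 5 Sm genes among the members, which do not make up the whole ring, lay between 0.26 and 0.59. Snrpc, a protein of U1, was higher by 0.51 (1.43-fold), and Snrpb2 and Snrpa1, partner proteins of U2, by 0.47 and 0.29. After subtraction of the ES cell marker median, Snrpf was at -0.010 and the group median at -0.21.

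The Prpf genes, named after yeast pre-mRNA processing mutants, were all higher on their brightest probe sets (12 of 12), with a median of 0.37. They held the largest difference among brightest probe sets of the members. Prpf40b, a relative of a yeast U1 protein, was read at 8.04 on the wild-type and 8.87 on the Mof null array (1.78-fold). Prpf38a, a protein of the complex before activation, went from 10.3 to 11.0 (1.57-fold), and Prpf18, which acts at the second catalytic step, from 8.47 to 9.03 (1.48-fold). The 5 proteins of U5 and of the U4/U6.U5 particle ranged from 0.19 for Prpf8, the scaffold of the catalytic centre, through 0.29 for Prpf31, 0.32 for Prpf6 and 0.43 for Prpf3 to 0.55 for Prpf4. The other expressed probe sets of Prpf4, Prpf6 and Prpf31 differed by 0.11, 0.44 and -0.25, so this order depends on the probe set. Prpf3 and Prpf8 had 1 probe set each. The ubiquitin ligase Prpf19 (0.15), the kinase Prpf4b (0.19) and Prpf39 (0.13) had the smallest differences of the group beside Prpf8.

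Probe sets of the same gene disagreed in sign for 13 of the 40 members that had several expressed probe sets, against 25.1% of all 5362 such genes. Of the 156 expressed member probe sets 134 lay above 0, beside 56.5% of all expressed probe sets. All expressed probe sets of a gene lay above 0 in 25 of these 40 members (62.5%) and below 0 in 2 (5%), beside 43% and 31.2% of all 5362 such genes. These shares of genes, and those of opposite signs, were not matched for the number of expressed probe sets per gene. The 13 genes with opposite signs were Hnrnpab, Hnrnpa1, Hnrnpa2b1, Hnrnpr, Srsf6, Srsf10, Srsf11, Sf3a2, Sf3b2, Prpf19, Prpf31, Prpf38b and Prpf4b. The pooled SD between expressed probe sets of a gene was 0.27 in members and 0.33 in all genes, close to the member median of 0.30. Several probe sets may report distinct transcripts of 1 gene, and since they share the arrays they are no replicates.

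Hnrnpab had the widest span, 2.06 log2 units, and was the 1 member whose probe sets spanned at least 1, against 7.8% of all genes with several. Of its 7 expressed probe sets, 6 were higher, by 0.14 to 0.91, and the remaining one was lower by 2.22-fold, from 11.7 on the wild-type to 10.5 on the Mof null array. That probe set was the 1 of 156 expressed member probe sets past 2-fold, a size at which 11.1% of all expressed probe sets were lower and 4.49% higher. Srsf11, an SR-related protein, was higher on its brighter probe sets, by 0.14 from 12.0 and by 0.26 from 9.99, and lower on its dimmer ones, by -0.19 from 7.48 and by -0.72 from 7.40. Prpf38b showed a like split, with 0.43 and 0.55 on the brighter and 0.050 and -0.35 on the dimmer probe sets.

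**Figure D3:**
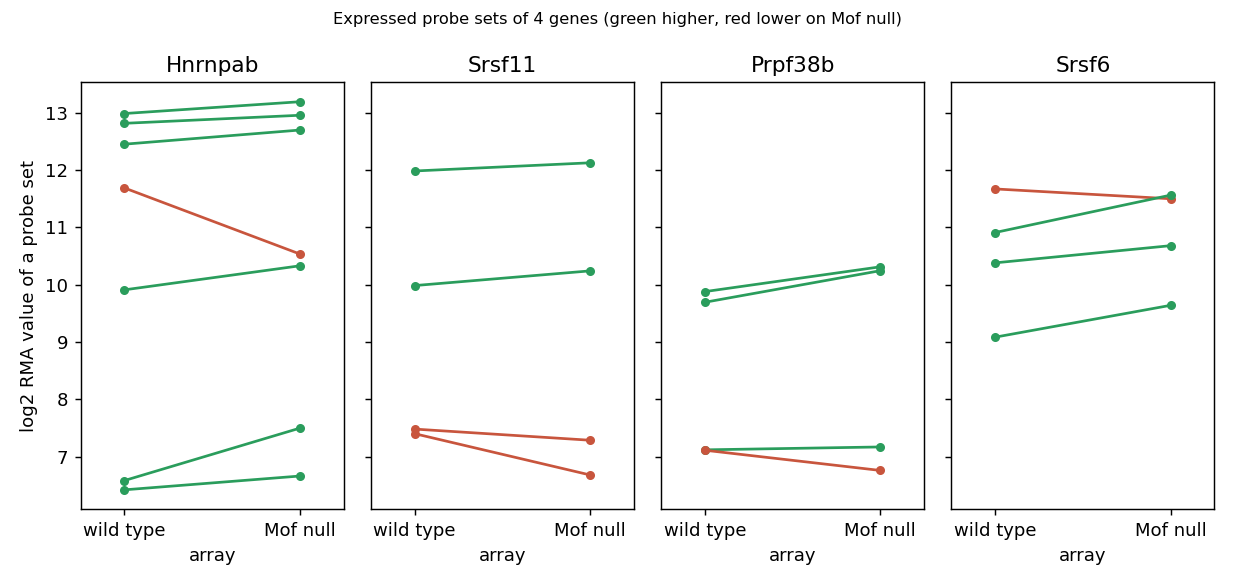
Log2 RMA values (y axis) of every expressed probe set on both arrays (x axis) for 4 genes, joined by green lines where higher and red lines where lower on the Mof null array. In Hnrnpab 1 of 7 lines falls, in Srsf11 the lower 2 of 4, in Prpf38b the dimmest and in Srsf6 the brightest.

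Srsf6 showed the reverse, with -0.17 on the brightest probe set and 0.65, 0.30 and 0.55 on the others. As the mean of its probe sets it was higher by 0.33, so its sign depends on the probe set. Hnrnpa1, an abundant splicing silencer with many processed copies in the genome, was read at 11.7 and 12.0 (0.33) by a probe set of the kind that can match several genes (suffix _x_at), and at 11.6 and 11.4 (-0.23) by its second expressed one. Hnrnpa2b1 was higher by 0.23 on its brightest probe set and lower by -0.076 to -0.32 on the other 3. Sf3a2 differed by 0.17 on a probe set shared between transcripts (suffix _s_at) and by -0.41 on its other one. Without probe sets of these kinds Hnrnpa1 and Sf3a2 were lower, and as means of their probe sets Hnrnpa2b1, Sf3a2 and Srsf11 were lower, so the sign of these 5 genes, Srsf6 among them, depends on the probe set.

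Other genes of the splicing pathway were described from a list of 103 names outside these families, of which 93 were found and 92 expressed. Their median difference was 0.27, 76 were higher and 16 lower, where 56.7% of all expressed genes were higher. Upward, 14 passed 1.5-fold (17.3% of all expressed genes did), and downward 5 (19.2% of all). Of the Lsm genes, whose proteins bind U6 or messenger RNA, Lsm3 (0.81), Lsm4 (0.68) and Lsm8 (0.65) were past 1.5-fold upward, and Lsm6 (0.44), Lsm7 (0.41) and Lsm2 (0.19) were not. For Lsm6 and Lsm8 this depends on the probe set, since their expressed probe sets ranged from 0.43 to 0.93 and from 0.52 to 0.65. Also past it were the Prp19 complex protein Cdc5l (0.66), the exon coactivator Srrm1 (0.62) and the snRNP assembly proteins Gemin2 (0.70) and Gemin5 (0.67). Other core genes lay below 0, among them the snRNP assembly gene Smn1 (-0.24) and the U5 genes Ddx23 (-0.24) and Txnl4a (-0.16). Ddx23 was read by 1 expressed probe set close to the level filter, at 6.52 on the wild-type and 6.28 on the Mof null array. The other expressed probe set of Txnl4a differed by -0.91, so the size for this gene depends on the probe set. With the ES cell marker median subtracted, this list's median was -0.33.

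Past 2-fold were 2 genes of this list upward and 3 downward, none of them a subunit of a snRNP, where 5.09% and 11.9% of all expressed genes were. Celf2, which controls exons in muscle and brain, was read at 9.28 on the wild-type and 7.51 on the Mof null array (3.41-fold lower), with its other expressed probe sets at -1.82 and -2.14. Mbnl1 and Mbnl2, muscleblind proteins that promote exon choices of differentiated cells, went from 11.1 to 9.56 (2.82-fold lower) and from 11.7 to 10.4 (2.45-fold lower), although 1 dim probe set of Mbnl2 differed by -0.21. Esrp1, which controls epithelial exons, is 1 of the 2 counted upward, but it passed the level filter only on the Mof null array: it read 6.70 there and 4.87, below the filter, on the wild-type array, so no fold is given. Fubp1, a nucleic acid-binding protein first described at the Myc gene, was higher by 2.32-fold from 9.43 to 10.6, while its other expressed probe sets differed by 0.064 to 0.83. The fibroblast and macrophage markers, with medians of -1.87 and -1.98, were lower on the same array as Celf2, Mbnl1 and Mbnl2, and their part in these differences was not tested.

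**Figure D4:**
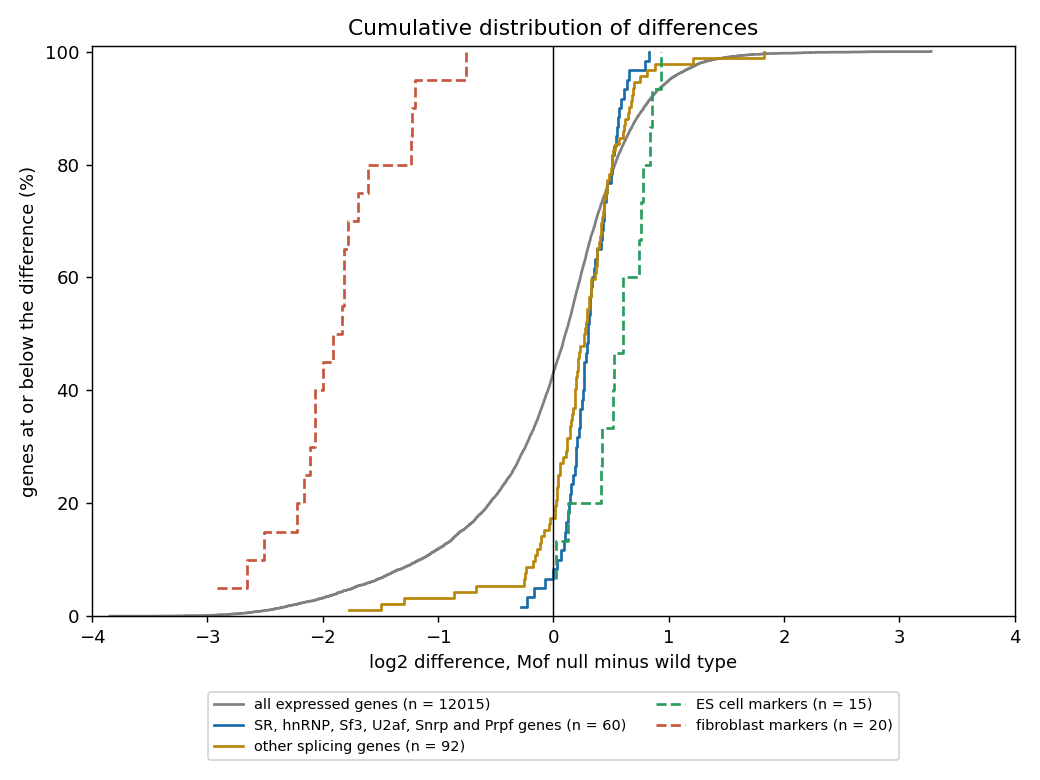
Share of genes (y axis, %) at or below a log2 difference (x axis) for all 12015 expressed genes, the 60 expressed members, 92 other splicing genes, 15 ES cell markers and 20 fibroblast markers. The curve of the members is the steepest and sits to the right of 0 between those of all genes and of the ES cell markers (medians 0.30, 0.10 and 0.60), and the fibroblast markers lie far to the left.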

How the data were processed

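RNA of 1 culture per genotype went onto 1 array each. The table deposited by the authors holds log2 values for 45101 probe sets, and the submitters' processing notes name RMA, affy and R 2.10.0. That the scale is log2 was judged from the range of the values. Quantile normalization within RMA makes the arrays alike, so a shift of most transcripts cannot be seen. The number of arrays limits the precision.

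Probe sets were named through the supplied platform annotation. Of 35890 listed probe sets, 34958 name 1 gene and 932 several, and 9211 were not listed. All 61 member IDs were found in the RefSeq table of GRCm38.p6, with no symbol changed. A gene took its brightest probe set, with a level filter at percentile 50 of all values. No test was possible, so genes were counted past 2-fold and 1.5-fold. Counting was tested on simulated data. Alternatives were the mean of probe sets, no _s_at or _x_at probe sets, no filter, percentile 75, centring, lowess (span 0.3), quantile normalization, 4-fold, and each role group without its most changed gene. Differences relative to the ES cell markers and single probe sets were added after seeing the data.

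The members and lists were chosen with earlier results of these data known. Named are members past 2-fold (none), up to 3 members with the largest positive and 3 with the largest negative difference per role group, members whose probe sets disagree, and other splicing genes past 2-fold. Other named genes were chosen after their values were seen, as were the motifs and the promoters printed. Python 3.11.15, numpy 2.4.6, pandas 2.3.3, statsmodels 0.14.6 and matplotlib 3.10.9 were used.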

Additional observations from a re-analysis of the deposited data

How the results depend on the processing

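The counts of members past 2-fold stayed at 0 in both directions under every gene-level alternative run, and none of 60 passed 4-fold. Centring on the median gene gave medians of 0.20 for all members, 0.16 for SR, 0.12 for hnRNP, 0.19 for U2 recognition, 0.29 for snRNP and 0.27 for Prpf genes, and 0.17 for the other splicing genes, and trend correction gave 0.18 for all members, 0.16 for SR, 0.14 for hnRNP, 0.17 for U2 recognition, 0.29 for snRNP and 0.23 for Prpf genes, and 0.14 for the other splicing genes. Under each of these, 2 members were at least 1.5-fold higher in place of 6, and 52 and 50 were above 0. Of all expressed genes, 13% and 13.3% were then at least 1.5-fold higher, and 50% and 50.6% were above 0. The mean of all probe sets gave an SR median of 0.41, and leaving out _s_at and _x_at probe sets an snRNP median of 0.51. The other splicing genes at least 2-fold higher were 1 in place of 2 with means of probe sets, at percentile 75 and relative to the ES cell markers. The shares of all expressed genes in these settings were 4.76%, 4.51% and 0.766%.

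Relative to the ES cell markers, the medians were -0.30 for all members, -0.33 for SR, -0.37 for hnRNP, -0.30 for U2 recognition, -0.21 for snRNP and -0.23 for Prpf genes and -0.33 for the other splicing genes. The median of all expressed genes was -0.50, and 16.7% of them were above 0. Then 5 members were above 0, 0 passed 1.5-fold upward and 5 downward, beside 2.92% and 44% of all expressed genes at 1.5-fold. Of the other splicing genes 5 passed 2-fold downward, where 24.3% of all expressed genes did. Snrpf was at -0.010. This scaling subtracts 0.60 from each gene, so lower values follow by construction. Counted singly, 134 of 156 expressed member probe sets were above 0, beside 56.5% of all expressed probe sets. At 1.5-fold, 16 passed upward and 2 downward (16% and 18.3% of all), and 1 passed 2-fold downward (11.1% of all). No paired analysis was possible because each genotype has 1 array, and leaving out an array was not possible for the same reason.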

Other observations

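Other RNA-processing families, chosen by symbol after the member values were seen, are given as values. The helicase and Rbm families share genes with the list of other splicing genes, Ddx46 and Rbm8a among them, so they are not separate from it. Exosc genes, subunits of the exosome that trims and degrades RNA, had a median difference of 0.57 over 10 expressed genes, 5 of them at least 1.5-fold higher (17.3% of all expressed genes were) and none at least 2-fold, led by Exosc3 at 0.99 (from 9.18 on the wild-type to 10.2 on the Mof null array). Integrator genes (Ints), which process small nuclear RNA ends, had a median of 0.47 over 14 genes, 13 of them higher (56.7% of all expressed genes were), while Ints6 was lower by -1.03, from 10.9 to 9.92. Cleavage and polyadenylation genes (Cpsf and Cstf) had a median of 0.28 over 10 genes, Thoc genes of mRNA export 0.36 over 6, and the nonsense-mediated decay genes (Upf and Smg) 0.11 over 7. The RNA helicases (Ddx and Dhx) had a median of 0.33 over 50 genes, with the germ cell helicase gene Ddx43 higher by 1.22 and the viral RNA sensor gene Ddx58 lower by -1.32. The RNA-binding motif (Rbm) genes had a median of 0.18 over 30 genes, 22 of them higher and 8 lower, with Rbm44 higher by 1.44, from 7.40 to 8.84, and Rbm43 lower by -1.29, from 8.94 to 7.65. Relative to the ES cell markers, whose median was 0.60, each of these family medians would be below 0. No member of these families was tested, and among all expressed genes 5.09% passed 2-fold upward and 11.9% downward.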
